A study of Mus musculus with 14 samples.

Results

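The genes described here are 34 interferon response genes, chosen by symbol from the deposited count table. They are known antiviral, signalling and antigen-processing genes that interferon induces. The rule itself uses no measured value, but the members were chosen with earlier results of these data known. All 34 symbols were found among the 55291 in the table, and all 34 were among the 21761 genes kept by the filter on low counts. RNA came from the tibia of Wild-type female C57Bl/6 mice in 5 groups. The sham group, with 3 libraries, had sham surgery. The other groups had ovariectomy (OVX), which removes the ovarian source of oestrogen. OVX-PBS, with 3 libraries, then received the vehicle PBS. OVX-HA, also 3, was given hippuric acid, OVX-PPA, with 2, was given 3'(3'hydroxyphenyl) propionic acid (3-3-PPA), and OVX-ZA, with 3, had zoledronic acid. Dosing began between day 2 and day 4 after surgery and lasted 8 weeks. The sources used here do not give doses, routes or the age of the mice. Hippuric acid, which is benzoic acid joined to glycine, and 3-3-PPA, a phenylpropionic acid with a hydroxyl group on its ring, are the phenolic acids of the study, and zoledronic acid is a bisphosphonate that blocks bone resorption. The labels do not say that the libraries of a group came from separate mice, so the p-values measure only the spread between these samples.

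Type I interferons are secreted proteins that most cells can make when sensors in the cytosol or endosome meet viral or misplaced nucleic acid. They bind the receptor pair encoded by Ifnar1 and Ifnar2, which activates transcription factors, STAT2 among them, that act with IRF9 on a promoter motif called the interferon-stimulated response element. The genes that carry the motif encode more sensors, further transcription factors such as IRF7, and proteins that block viral replication or present antigen. In bone, interferon signalling is known to restrain osteoclast formation, and marrow immune cells keep many of these genes on at a low level.

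To show what the members share in sequence, promoter windows from the RefSeq promoter table (build GRCm38.p6, 250 bases before to 50 bases after each start site) were searched for the core of the response element, GAAA followed by any 2 bases and another GAAA. Both strands were read and copies may overlap. The table matched 25 of the 34 members by symbol, and the members not in it are Dhx58, Zbp1, Usp18, Mx1, Mx2, Oas2, Rtp4, Ifi27l2a and Parp14. The core was present in 13 of 25 members (52.0%) and in 1079 of 27025 genes with a window (3.99%). With a C after the second GAAA it was present in 11 of 25 members (44.0%) against 0.944% of all genes. The core, with or without that C, was found in 9 of 12 antiviral effectors, and in 0 of 3 antigen-processing genes and 0 of 4 of the remaining members with a window. The core of the gamma-activated site, TTC, any 3 bases and GAA, was in 5 of 25 members (20.0%) and in 9.55% of all genes. A match is a description of letters in a window, not evidence of binding.

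The 250 bases before the start site are shown for 6 members that carry the core and whose values are described further on, 5′ to 3′ on the strand of the gene, with the core in capitals. Overlapping copies run together, and a core on the opposite strand reads as its reverse complement. Stat2 lies on the plus strand at chr10:128270248-128270497, Isg15 on the minus strand at chr4:156200819-156201068, Ifit1 on the plus strand at chr19:34640639-34640888, Ifit3 on the plus strand at chr19:34583279-34583528, Rsad2 on the minus strand at chr12:26456453-26456702, and Bst2 on the minus strand at chr8:71537473-71537722.
Stat2: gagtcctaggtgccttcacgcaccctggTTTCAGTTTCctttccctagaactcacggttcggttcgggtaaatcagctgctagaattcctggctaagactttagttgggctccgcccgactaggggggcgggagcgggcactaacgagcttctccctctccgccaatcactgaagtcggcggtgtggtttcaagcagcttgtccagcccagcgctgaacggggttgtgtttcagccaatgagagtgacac
Isg15: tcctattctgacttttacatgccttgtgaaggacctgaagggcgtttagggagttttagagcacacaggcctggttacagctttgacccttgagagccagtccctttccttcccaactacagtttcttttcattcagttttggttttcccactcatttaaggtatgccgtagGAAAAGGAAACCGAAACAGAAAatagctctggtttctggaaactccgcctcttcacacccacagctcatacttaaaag
Ifit1: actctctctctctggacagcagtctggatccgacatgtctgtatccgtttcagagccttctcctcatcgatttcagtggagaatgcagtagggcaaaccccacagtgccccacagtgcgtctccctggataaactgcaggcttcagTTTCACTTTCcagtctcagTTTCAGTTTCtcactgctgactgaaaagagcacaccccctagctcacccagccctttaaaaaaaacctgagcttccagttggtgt
Ifit3: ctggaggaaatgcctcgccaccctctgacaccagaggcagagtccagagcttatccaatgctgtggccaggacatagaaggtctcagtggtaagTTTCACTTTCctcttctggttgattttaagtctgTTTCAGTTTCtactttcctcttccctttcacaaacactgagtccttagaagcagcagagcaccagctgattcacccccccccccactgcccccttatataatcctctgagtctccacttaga
Rsad2: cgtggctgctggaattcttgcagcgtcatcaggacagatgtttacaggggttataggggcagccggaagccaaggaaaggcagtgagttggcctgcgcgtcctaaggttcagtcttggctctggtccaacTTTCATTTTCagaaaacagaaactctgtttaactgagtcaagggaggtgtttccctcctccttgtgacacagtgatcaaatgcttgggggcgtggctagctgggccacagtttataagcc
Bst2: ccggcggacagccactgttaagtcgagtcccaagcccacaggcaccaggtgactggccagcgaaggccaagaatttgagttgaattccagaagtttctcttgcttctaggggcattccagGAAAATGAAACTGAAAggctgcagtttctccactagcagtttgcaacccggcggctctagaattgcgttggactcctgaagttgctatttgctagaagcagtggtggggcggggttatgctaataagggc
In Isg15 a run of 3 overlapping copies began 78 bases before the start site. Ifit1 held separate copies that began 104 and 85 bases before it, and Ifit3 held copies at 156 and 122 bases. Its near-identical neighbour Ifit3b held the same pair, with the same distance between them, at 188 and 154 bases. Rsad2 and Stat2 each held 1 copy, at 120 and 222 bases, and Bst2 an overlapping pair from 130 bases. In Ddx58 and Ifih1 the core lay just after the start site, from bases 2 and 32.

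**Figure D1:**
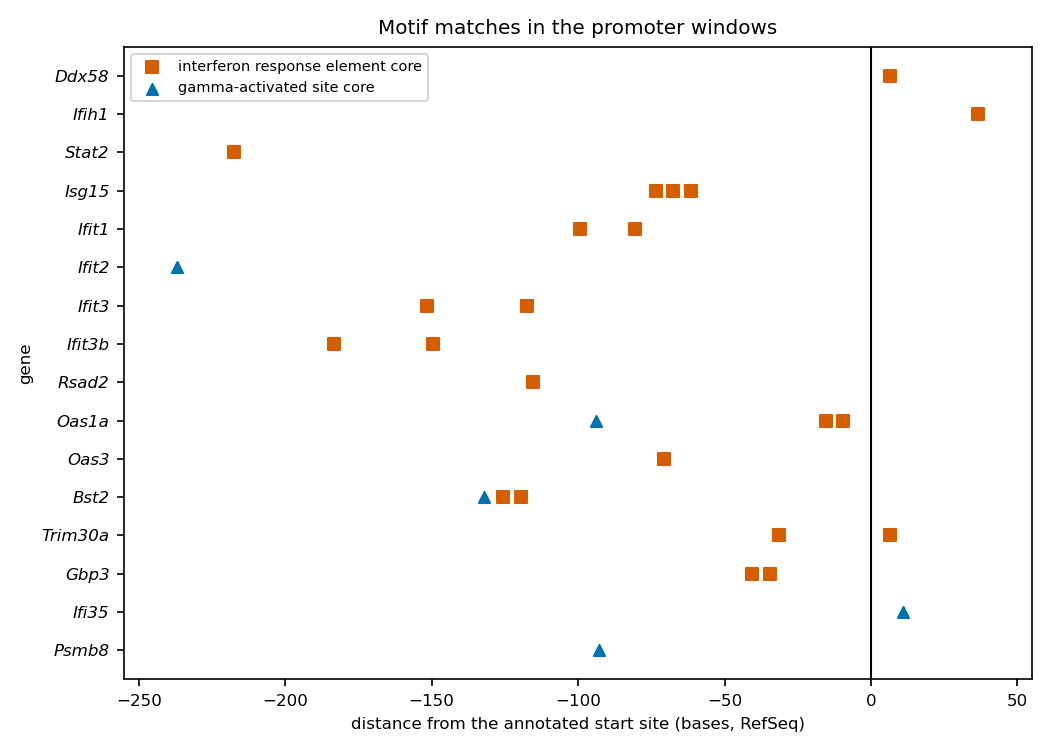
Positions of the response element core (squares) and the gamma-activated site core (triangles) in the promoter windows of the members, against distance in bases from the annotated start site. Each position is counted from the start site of its own window. Most squares lie before the start, and those of Ddx58, Ifih1 and another annotated start site of Trim30a lie after it.

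Several members are neighbours in the genome (GENCODE coordinates, GRCm38). Ifit2, Ifit3, Ifit3b and Ifit1 lie together at chr19:34550694-34650009. The Oas genes Oas2, Oas3 and Oas1a lie on chromosome 5, as do Oasl2 and Oasl1, and Mx1 and Mx2 both lie on chromosome 16. Psmb9, Tap1 and Psmb8 lie within chr17:34181987-34201454, and the gene models of Psmb9 and Tap1 overlap on opposite strands, so that reads of the overlap can be told apart only by strand. The sources used here do not say whether the counting used strand. Reads can also be split between Ifit3 and Ifit3b and among members of the Oas, Trim30, Gbp and Ifi27 families, so their values are uncertain in that respect. Mx2 is annotated as a polymorphic pseudogene.

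Library depth ranged from 11896820 to 35418060 estimated counts. All 10 bone markers on a list (among them Bglap, Sost and Ctsk) were above 0 in every library, as were all 7 skeletal muscle markers, whose summed level was 24800 to 57000 CPM (counts scaled to a common library size, with TMM factors), so the RNA came from muscle as well as bone. Mobp, a myelin gene of the central nervous system, was at 5.55 CPM in OVX-PBS 1 and 1.17 CPM in OVX-HA 2 and at 153 to 507 CPM in the other libraries. Summed central nervous system markers (9 genes) were at 110 and 148 CPM in OVX-PBS 1 and OVX-HA 2. In the other libraries they were at 529 to 1550 CPM, so those carried more nervous system RNA beside that of bone and muscle. Glycam1, a lymph node vessel gene, was above 5 CPM in sham 3, OVX-ZA 1 and OVX-ZA 2 only. In such bulk RNA, fewer cells of a type and less RNA per cell cannot be told apart.

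Per length of transcript the members covered a wide range. Ifi27l2a, a small mitochondrial membrane protein gene, had the highest median level over the 14 libraries, at 85.7 CPM per kb of exon. It was followed by Isg15 at 21.0, Rsad2 at 19.8, Bst2 at 16.4 and Lgals3bp at 16.3 CPM per kb. The lowest were Mx2 at 0.526 and Ifi44 at 0.361 CPM per kb. The levels that follow are CPM without division by length and serve to compare libraries within a gene.

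The sensors detect foreign RNA or DNA. Ddx58 stood at 19.6, 18.7 and 19.3 CPM in the sham libraries, 21, 19.1 and 22.9 in OVX-PBS, 17.4, 21.2 and 16.4 in OVX-HA, 15.7 and 21.8 in OVX-PPA, and 19, 22.1 and 15.7 CPM in OVX-ZA. Ddx58 encodes RIG-I, which binds RNA with a free triphosphate end, and its highest library was only 1.46 times its lowest. The Ifih1 values were 13.4, 14 and 15.3 CPM in sham, 18.7, 14.5 and 14.3 in OVX-PBS, 11.9, 18.3 and 13.3 in OVX-HA, 12.4 and 16 in OVX-PPA, and 15.1, 16.5 and 12.3 CPM in OVX-ZA. Ifih1 encodes MDA5, a sensor of long double-stranded RNA, and the 5 groups overlapped. In sham, Zbp1 was at 2.9, 4.11 and 4.94 CPM, against 2.57, 5.42 and 4.13 in OVX-PBS, 2.16, 3.86 and 2.69 in OVX-HA, 2.01 and 5.03 in OVX-PPA, and 4.62, 6.61 and 2.68 CPM in OVX-ZA. Zbp1, a sensor of left-handed nucleic acid that can start cell death, spread most in this class, 3.29-fold from OVX-PPA 1 to OVX-ZA 2, and libraries of 1 group differed as much as the groups did. Dhx58, encoding the RIG-I relative LGP2, ranged from 4.97 CPM in OVX-HA 3 to 10.2 CPM in OVX-HA 2.

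The transcription factors carry the receptor signal to the promoters. Irf7 stood at 17.4, 20 and 23.2 CPM in the sham libraries, 33.1, 25.9 and 23.2 in OVX-PBS, 15.3, 36.6 and 15 in OVX-HA, 18.6 and 18.4 in OVX-PPA, and 17.7, 19.9 and 15.1 CPM in OVX-ZA. Irf7, the factor that amplifies interferon production, was high in OVX-PBS 1 and OVX-HA 2, while the other OVX-HA libraries and OVX-ZA 3 were the lowest. The Stat2 values were 34.8, 40 and 40.2 CPM in sham, 44.9, 41.6 and 40.7 in OVX-PBS, 35.4, 54.4 and 33.7 in OVX-HA, 33.7 and 41.3 in OVX-PPA, and 36.9, 41.8 and 31.7 CPM in OVX-ZA. Stat2 had its highest level in OVX-HA 2 and its lowest in OVX-ZA 3. In sham, Irf9 was at 30.4, 34 and 39.8 CPM, against 47.8, 37 and 39.4 in OVX-PBS, 29.4, 61.5 and 31.2 in OVX-HA, 36.3 and 37.5 in OVX-PPA, and 33.2, 34 and 28.6 CPM in OVX-ZA. Irf9, the DNA-binding partner of STAT2, followed the same order at its extremes, from 28.6 CPM in OVX-ZA 3 to 61.5 CPM in OVX-HA 2.

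Isg15 encodes a ubiquitin-like protein that is joined to other proteins during the response, and Usp18 encodes the protease that removes it and also dampens the receptor. Isg15 stood at 13.2, 16.7 and 21.5 CPM in the sham libraries, 29.2, 20.2 and 17.5 in OVX-PBS, 12.3, 38.1 and 13.3 in OVX-HA, 16.1 and 15.8 in OVX-PPA, and 13.9, 13.4 and 11.7 CPM in OVX-ZA. The 3 OVX-ZA libraries of Isg15 lay below all 3 OVX-PBS libraries, and OVX-HA 2 was 2.97 times the mean of the other OVX-HA libraries. The Usp18 values were 4.68, 4.39 and 5.44 CPM in sham, 5.48, 6.12 and 6.01 in OVX-PBS, 4.09, 7.97 and 4.06 in OVX-HA, 3.64 and 5.4 in OVX-PPA, and 4.86, 5.44 and 4.4 CPM in OVX-ZA. Every OVX-PBS library of Usp18 was above every sham library, and OVX-HA 2 was again the highest.

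The antiviral effectors were the largest class, with 15 genes. In sham, Rsad2 was at 63.2, 79.5 and 104 CPM, against 154, 92.5 and 93.3 in OVX-PBS, 62.1, 187 and 66.9 in OVX-HA, 94.7 and 94.9 in OVX-PPA, and 68.7, 73.4 and 68.4 CPM in OVX-ZA. Rsad2 encodes viperin, which makes a chain-terminating nucleotide, and OVX-PBS 1 and OVX-HA 2 stood above all other libraries. Ifit1 stood at 7.74, 8 and 8.56 CPM in the sham libraries, 12.9, 10.7 and 8.96 in OVX-PBS, 7.93, 11.5 and 6.19 in OVX-HA, 7.1 and 8.44 in OVX-PPA, and 8.48, 11.5 and 7 CPM in OVX-ZA. Ifit1, which binds viral RNA caps, was higher in each OVX-PBS library than in any sham library. The Ifit3 values were 14, 14.8 and 14.2 CPM in sham, 13.8, 17 and 15.2 in OVX-PBS, 14.1, 11.8 and 11.8 in OVX-HA, 12.2 and 13.7 in OVX-PPA, and 13.8, 15.4 and 12.2 CPM in OVX-ZA. Ifit3, a partner of IFIT1, was steadier than Rsad2 and Ifit1, with a highest library 1.44 times the lowest, and did not share the peak in OVX-HA 2.

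In sham, Oasl2 was at 18.7, 18.4 and 17.5 CPM, against 21.3, 22 and 20.1 in OVX-PBS, 14.5, 23.5 and 15.8 in OVX-HA, 13.7 and 22.7 in OVX-PPA, and 21.1, 23.3 and 17.5 CPM in OVX-ZA. Oasl2, a relative of the oligoadenylate synthetases, was higher in each OVX-PBS library than in any sham library and had its lowest values in OVX-PPA 1 and OVX-HA 1. Bst2 stood at 14.9, 13 and 15.1 CPM in the sham libraries, 17.7, 18.9 and 13.2 in OVX-PBS, 11.5, 19.2 and 10.3 in OVX-HA, 10.8 and 14.8 in OVX-PPA, and 15.4, 14.8 and 10.8 CPM in OVX-ZA. Bst2 encodes tetherin, which holds budding virus at the cell surface, and its values in all 5 groups overlapped those of OVX-PBS. Of the effectors not listed by library, Oas3 reached 38.3 CPM in OVX-HA 2 against 12.8 CPM in OVX-ZA 3, and Oasl1 6.18 against 1.94 CPM in the same libraries. Oas1a, Oas2, Trim30a, Gbp3 and Ifit2 differed by 1.35 to 2.11 times between their extremes. The dynamin-like Mx1 stayed between 2.32 and 4.72 CPM, Mx2 between 1.38 and 3.32 CPM and Ifit3b between 3.98 and 8.95 CPM.

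The remaining members have other or less defined roles. The Rtp4 values were 6.51, 5.58 and 8.55 CPM in sham, 7.83, 9.17 and 8.19 in OVX-PBS, 5.94, 6.88 and 5.54 in OVX-HA, 7.32 and 9.24 in OVX-PPA, and 8.41, 6.84 and 5.9 CPM in OVX-ZA. Rtp4, a zinc finger protein that binds RNA, was lower in each OVX-HA library than in any OVX-PBS library. In sham, Ifi27l2a was at 41, 28.2 and 59.4 CPM, against 48.5, 57.4 and 25.6 in OVX-PBS, 37.9, 38.5 and 23.4 in OVX-HA, 42.4 and 33.1 in OVX-PPA, and 47.2, 48.3 and 30.3 CPM in OVX-ZA. Ifi27l2a varied 2.54-fold, mostly within groups, as in sham and OVX-PBS. Ifi44, Xaf1, Parp14, Ifi35 and Lgals3bp ranged by 1.46 to 2.23 times, and Lgals3bp, a secreted glycoprotein, was the most even of them.

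The antigen-processing members make and move peptides for MHC class I. Psmb8 stood at 24.9, 30.5 and 30.6 CPM in the sham libraries, 27.2, 32.7 and 32.9 in OVX-PBS, 22.1, 32.7 and 21.3 in OVX-HA, 20.1 and 33.4 in OVX-PPA, and 28.6, 38.3 and 21.6 CPM in OVX-ZA. Psmb8, a subunit of the immunoproteasome, was lowest in OVX-PPA 1 and highest in OVX-ZA 2. The Tap1 values were 25.5, 32.6 and 37 CPM in sham, 37.8, 41.2 and 38.2 in OVX-PBS, 25.8, 53.7 and 28.8 in OVX-HA, 26.5 and 39.8 in OVX-PPA, and 35.5, 40.9 and 27.7 CPM in OVX-ZA. Tap1, a subunit of the peptide transporter of the endoplasmic reticulum, ran from 25.5 CPM in sham 1 to 53.7 CPM in OVX-HA 2. Psmb9, the other immunoproteasome subunit here, ranged from 11.9 to 22.5 CPM between OVX-HA 1 and OVX-HA 2.

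**Figure D2:**
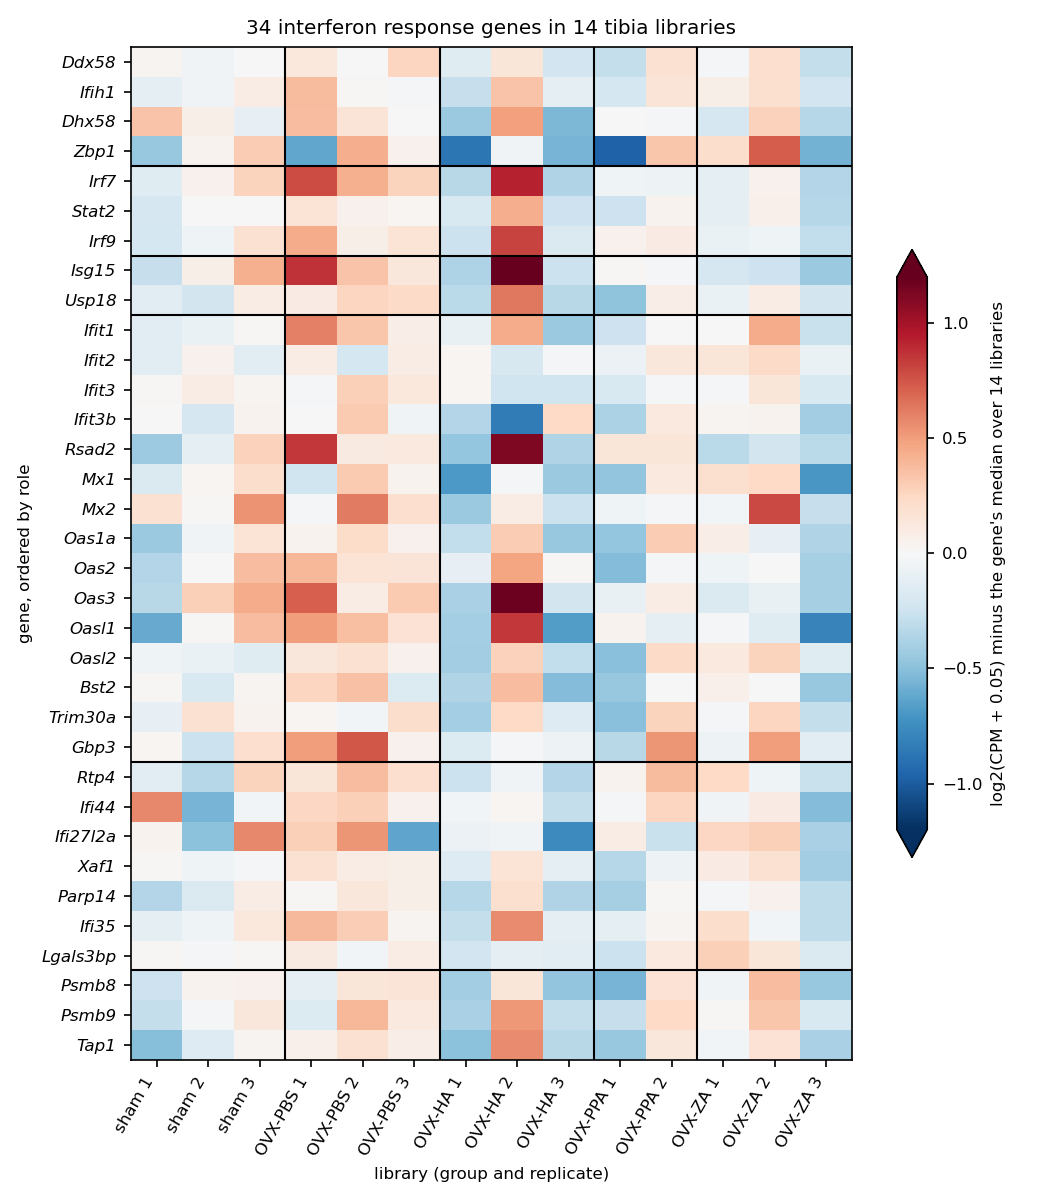
Level of each of the 34 members (rows, by role) in each of the 14 libraries (columns), as log2(CPM + 0.05) minus the median of the gene, with colours capped at 1.2 in both directions. OVX-HA 2 and OVX-PBS 1 hold the deepest red cells, for Isg15, Rsad2, Oas3 and Irf7, while OVX-HA 1, OVX-HA 3, OVX-PPA 1 and OVX-ZA 3 are blue for most members.

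**Figure D3:**
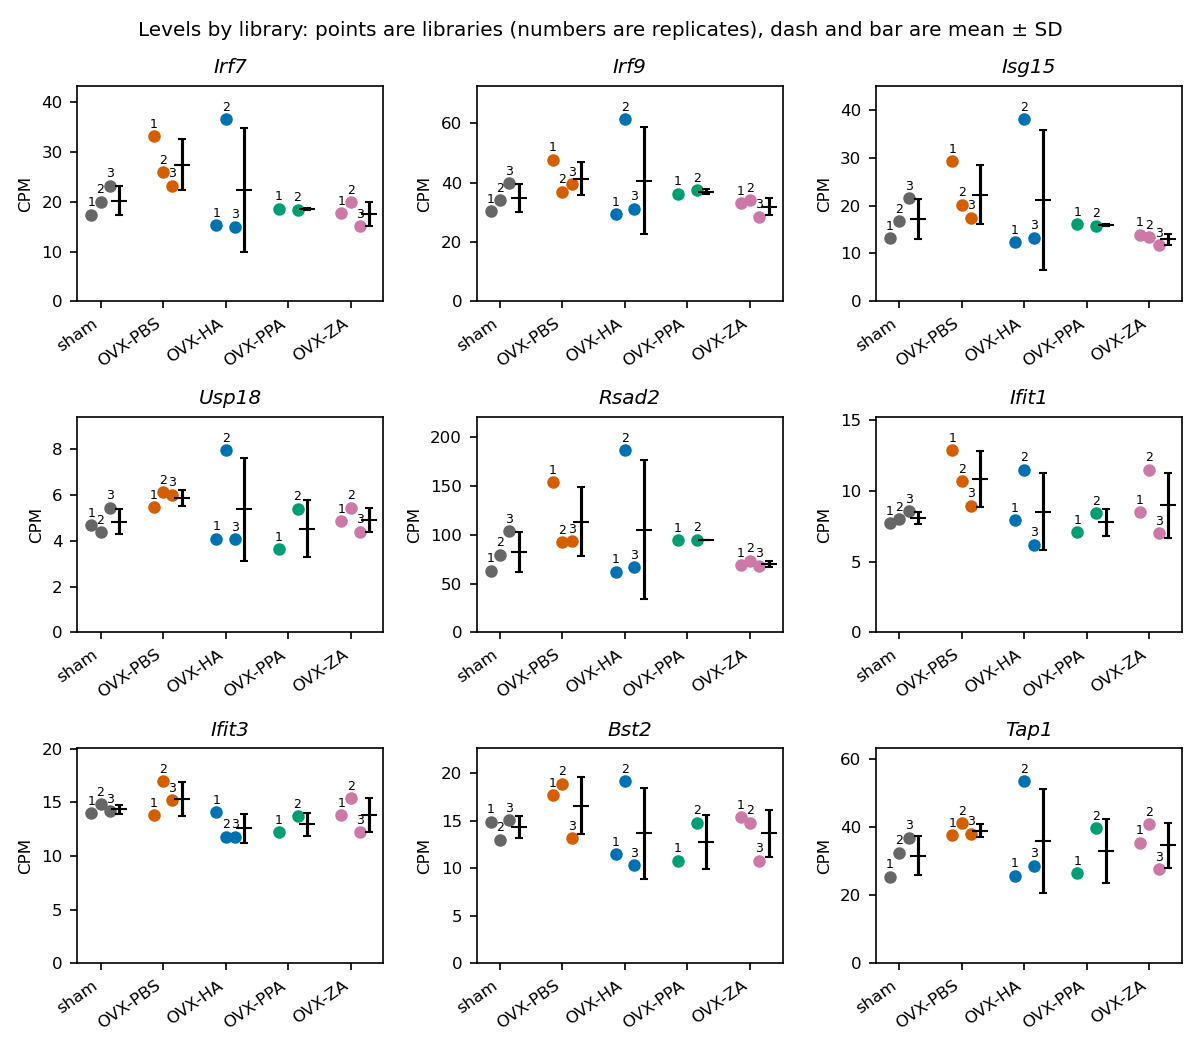
CPM of 9 members by group, with each point a library marked by its replicate number and the dash and bar giving the group mean ± SD. OVX-HA 2 stands above the other libraries of its group for all of them except Ifit3, and Isg15 in OVX-ZA runs from 11.7 to 13.9 CPM against 17.5 to 29.2 CPM in OVX-PBS.

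Most members were high or low in the same libraries. The mean log2 CPM of the 34 members was 3.55, 3.62 and 3.83 in sham, 3.91, 3.92 and 3.77 in OVX-PBS, 3.38, 4.01 and 3.39 in OVX-HA, 3.43 and 3.79 in OVX-PPA, and 3.70, 3.84 and 3.34 in OVX-ZA. OVX-HA 2 was thus the highest library of all, and the others of its group were among the lowest. The range within OVX-HA was 0.63, within OVX-ZA 0.50 and within OVX-PPA 0.36, all larger than the distance between the lowest and highest group means, 3.59 and 3.87. Within sham the range was 0.28 and within OVX-PBS 0.15. A range of single libraries and a distance between means are unlike measures.

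OVX-HA 2 had the highest level of the 14 libraries for 16 of 34 members, as against 21.8% of all genes. It was above both other OVX-HA libraries for 31 of 34 members (43.2% of all genes), by 2.97 times for Isg15, 2.89 for Rsad2, 2.79 for Oas3 and 2.41 for Irf7, and the exceptions were Ifit2, Ifit3 and Ifit3b. OVX-PBS 1 resembled it for some members only, with Rsad2 at 1.66 and Isg15 at 1.55 times the other OVX-PBS libraries but Zbp1 at 0.543 and Mx2 at 0.734. These are the same libraries that held little Mobp. Both also held more erythroid RNA, with all 8 erythroid markers above every other library of their group and a summed level of 57100 CPM in OVX-HA 2 and 34800 CPM in OVX-PBS 1, against 15900 to 31300 CPM elsewhere. In OVX-HA 2 all 10 bone markers and all 9 neutrophil markers were also above the rest of its group, whereas in OVX-PBS 1 all 9 neutrophil markers were below. The part of this tissue mixture in the level of the members was not tested.

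OVX-ZA 3 was below both other OVX-ZA libraries for 34 of 34 members (28.2% of all genes), and OVX-PPA 1 was below OVX-PPA 2 for 29 of 34 (42.2% of all genes). The markers of several blood cells were low in the same libraries. All 9 neutrophil and all 10 T and NK cell markers in OVX-ZA 3 were below the rest of the group, and so were 7 of 8 B cell markers. In OVX-PPA 1 the counts were 9 of 9, 9 of 10 and 8 of 8, while all 8 erythroid markers were above OVX-PPA 2. The sum of T and NK cell markers lay between 20.6 and 53.1 CPM for sham, 20.1 and 33.2 for OVX-PBS, 15.4 and 28.7 for OVX-HA, 12.4 and 31.5 for OVX-PPA, and 17.2 and 59.9 for OVX-ZA. The sum of neutrophil markers, by the same order of groups, lay between 2590 and 5860, 2600 and 4930, 2480 and 4470, 2050 and 5470, and 2490 and 3130 CPM. Summed plasmacytoid dendritic cell markers (9 genes, among them Siglech, with Runx2 and Tcf4 also known in bone cells), a cell type known for interferon production, were 450 to 596 CPM over all libraries. No marker of these cell types was at 0 in any library, and their part in the result was not tested.

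The comparison of OVX-PBS with sham addresses what loss of the ovaries did to the response genes. For all 34 members the OVX-PBS mean was above the sham mean (for 29 with limma on the deposited log2 table), but by little, the median log2 difference being 0.19 against 0.01 for all genes, and no member passed the test. Ifit1 averaged 10.8 ± 1.95 CPM (SD, n = 3) in OVX-PBS and 8.1 ± 0.417 CPM (SD, n = 3) in sham, a log2 difference of 0.42 ± 0.23 (SE). Irf7 averaged 27.4 ± 5.14 against 20.2 ± 2.92 CPM (SD, n = 3 each), with overlapping libraries. By class, the medians were 0.33 for the ISG15 genes, 0.25 for the transcription factors, 0.21 for the effectors, 0.19 for antigen processing, 0.13 for the remaining members and 0.10 for the sensors.

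In edgeR's quasi-likelihood test 0 of 34 members were called at an FDR of 0.05 (0% of all genes), 0 were at an unadjusted p under 0.05 (2.73% of all genes), and DESeq2 called 0. The smallest unadjusted p-values were those of Gbp3, a guanylate-binding GTPase (0.46 ± 0.25), Ifit1 and Rtp4 (0.29 ± 0.19), each with an adjusted p of 0.913, where a value ± SE after a gene is its log2 difference, here and further on. The libraries did not overlap for 6 members, all higher in OVX-PBS (17.6%, against 4.03% of all genes): Stat2, Usp18, Ifit1, Oasl2, Xaf1 and Tap1. All 8 erythroid, all 7 muscle and 7 of 8 B cell markers also averaged higher in OVX-PBS, with median log2 differences of 0.31, 0.34 and 0.71, while 9 of 10 T and NK cell markers and all 9 central nervous system markers averaged lower. Summed T and NK cell markers were at 20.6, 32.6 and 53.1 CPM in sham, the last in the library with Glycam1. In OVX-PBS they were at 21.2, 20.1 and 33.2 CPM. Summed central nervous system markers were at 1470, 1550 and 678 CPM in sham. In OVX-PBS they were at 110, 895 and 981 CPM. The part of all these markers was not tested.

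The next 3 comparisons set each compound against OVX-PBS and share those 3 libraries, so a high OVX-PBS value moves all of them, and the comparison with sham in the opposite direction. They ask whether the response genes differed from the vehicle after treatment. In all of them the members averaged lower, with medians between -0.22 and -0.20, and none passed the test.

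For hippuric acid, the mean of OVX-HA was below that of OVX-PBS for 34 of 34 members (32 with RLE scaling, DESeq2 or limma), with a median log2 difference of -0.22 against 0.01 for all genes. Rtp4 averaged 6.12 ± 0.688 CPM in OVX-HA and 8.4 ± 0.692 CPM in OVX-PBS (SD, n = 3 each), a log2 difference of -0.46 ± 0.19 (SE). Gbp3 averaged 11.4 ± 0.583 against 16.7 ± 3.97 CPM, and Ifit3 12.5 ± 1.36 against 15.4 ± 1.59 CPM (SD, n = 3 each). Other members differed little: Stat2 by -0.04 ± 0.17, Irf9 by -0.02 ± 0.24 and Isg15 by -0.06 ± 0.37 (log2, SE), and OVX-HA 2 stood above the rest of its group for each of these.

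By edgeR's quasi-likelihood test 0 of 34 members were called (0% of all genes) and DESeq2 called 0. Rtp4, Ifit3 (-0.29 ± 0.13) and Gbp3 (-0.55 ± 0.25) were at an unadjusted p under 0.05 (3 of 34, against 1.47% of all genes and 0.823% in that direction), with an adjusted p of 1 for each. Members under 0.05 numbered 0 with RLE scaling or limma, 1 with DESeq2, 2 without a filter and 3 with upper-quartile scaling. Libraries did not overlap for 4 members, all lower in OVX-HA (11.8%, against 1.82% of all genes): Rtp4, Gbp3, Ifi44 and Lgals3bp. Markers of several blood cell types averaged lower as well, for 9 of 9 neutrophil, 10 of 10 T and NK cell, 8 of 8 B cell and 9 of 10 monocyte genes. Summed erythroid markers were at 18100, 57100 and 17600 CPM in OVX-HA and 34800, 26200 and 26200 CPM in OVX-PBS. The part of all these markers was not tested. The size of the members' difference depended on each OVX-HA library. Without OVX-HA 2 the median was -0.51, and 16 members reached an unadjusted p under 0.05 as against 6.87% of all genes in that direction, with a smallest adjusted p of 0.38 and 0 called. Irf7 was then at -0.85 ± 0.16 (log2, SE), Isg15 at -0.79 ± 0.22 and Rsad2 at -0.81 ± 0.22. OVX-HA 2, also low in Mobp, had the highest mean of the members, so any fit without it lowers OVX-HA for most of them. The number of members at that p therefore depends on this choice of library. The median was -0.11 without OVX-HA 1 and -0.10 without OVX-HA 3. Without both libraries low in Mobp the median was -0.53, 20 members reached that p (3.51% of all genes in that direction), the smallest adjusted p was 0.682, and 0 were called.

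For 3-3-PPA, the mean of OVX-PPA was below that of OVX-PBS for 33 of 34 members (32 without a filter), and Ifit2 was the exception at 0.04 ± 0.14 (log2, SE). The median was -0.21, against -0.02 for all genes. Irf7 averaged 18.5 ± 0.0768 CPM (SD, n = 2) against 27.4 ± 5.14 CPM (SD, n = 3), a log2 difference of -0.56 ± 0.34 (SE), and Ifit1 averaged 7.77 ± 0.949 CPM (SD, n = 2), -0.47 ± 0.27 (log2, SE) from OVX-PBS. The ISG15 genes had the largest class median, -0.42 (log2).

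No member was called by edgeR (0% of all genes) or by DESeq2, and 0 were at an unadjusted p under 0.05 (1.87% of all genes). The smallest unadjusted p-values were those of Oas2, an oligoadenylate synthetase (-0.48 ± 0.25), Ifit1 and Ifit3 (-0.25 ± 0.14), each with an adjusted p of 1. Libraries did not overlap for 9 members, all lower in OVX-PPA (26.5%, against 8.74% of all genes). They were Irf7, Isg15, Usp18, Ifit1, Ifit3, Oas2, Oasl1, Xaf1 and Ifi35. All 7 muscle markers averaged lower in OVX-PPA too, and 8 of 9 central nervous system markers higher, and their part was not tested. With 2 libraries in the group the value rested on OVX-PPA 1: without it the median was -0.04 and 18 members averaged lower, and without OVX-PPA 2 the median was -0.46. In both cases the lone library is assumed to vary like the other groups.

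For zoledronic acid, 31 of 34 members had a lower mean in OVX-ZA (30 with RLE or upper-quartile scaling or DESeq2), with a median log2 difference of -0.20 against -0.04 for all genes. Members with a lower mean included Isg15 (13 ± 1.16 against 22.3 ± 6.12 CPM, SD, n = 3 each), Rsad2 (70.2 ± 2.81 against 113 ± 35.3 CPM) and Irf7 (17.6 ± 2.39 against 27.4 ± 5.14 CPM). Zbp1, Ifit2 and Lgals3bp averaged higher, by 0.19 ± 0.41, 0.10 ± 0.13 and 0.04 ± 0.12 (log2, SE). The antigen-processing genes differed least, with a median of -0.08.

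No member was called by edgeR (0% of all genes) or by DESeq2, and 0 were at an unadjusted p under 0.05 (3.36% of all genes). The smallest unadjusted p-values were those of Irf7 (-0.64 ± 0.30), Isg15 (-0.78 ± 0.38) and Rsad2 (-0.69 ± 0.37), each with an adjusted p of 0.899. Members under 0.05 also numbered 0 with RLE or upper-quartile scaling or DESeq2, but 2 with limma or without a filter. They numbered 3 without the libraries low in Mobp and 6 with the compared groups alone. In each of these 0 were called, and the shares of all genes are not given here. Libraries did not overlap for 8 members, all lower in OVX-ZA (23.5%, against 9.96% of all genes): Irf7, Irf9, Isg15, Usp18, Rsad2, Oas2, Oas3 and Oasl1. Without the libraries with Glycam1, which leaves OVX-ZA 3 alone in its group, the median was -0.53, and without OVX-ZA 3 it was -0.09. All 8 erythroid and all 9 neutrophil markers averaged lower in OVX-ZA too, with median log2 differences of -0.64 and -0.37, whereas 8 of 10 T and NK cell markers averaged higher, with a median of 0.82. Summed T and NK cell markers were at 37.2 and 59.9 CPM in OVX-ZA 1 and OVX-ZA 2, the libraries with Glycam1. In OVX-ZA 3 the sum was 17.2 CPM, against 21.2, 20.1 and 33.2 CPM in OVX-PBS. The part of all these markers was not tested.

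**Figure D4:**
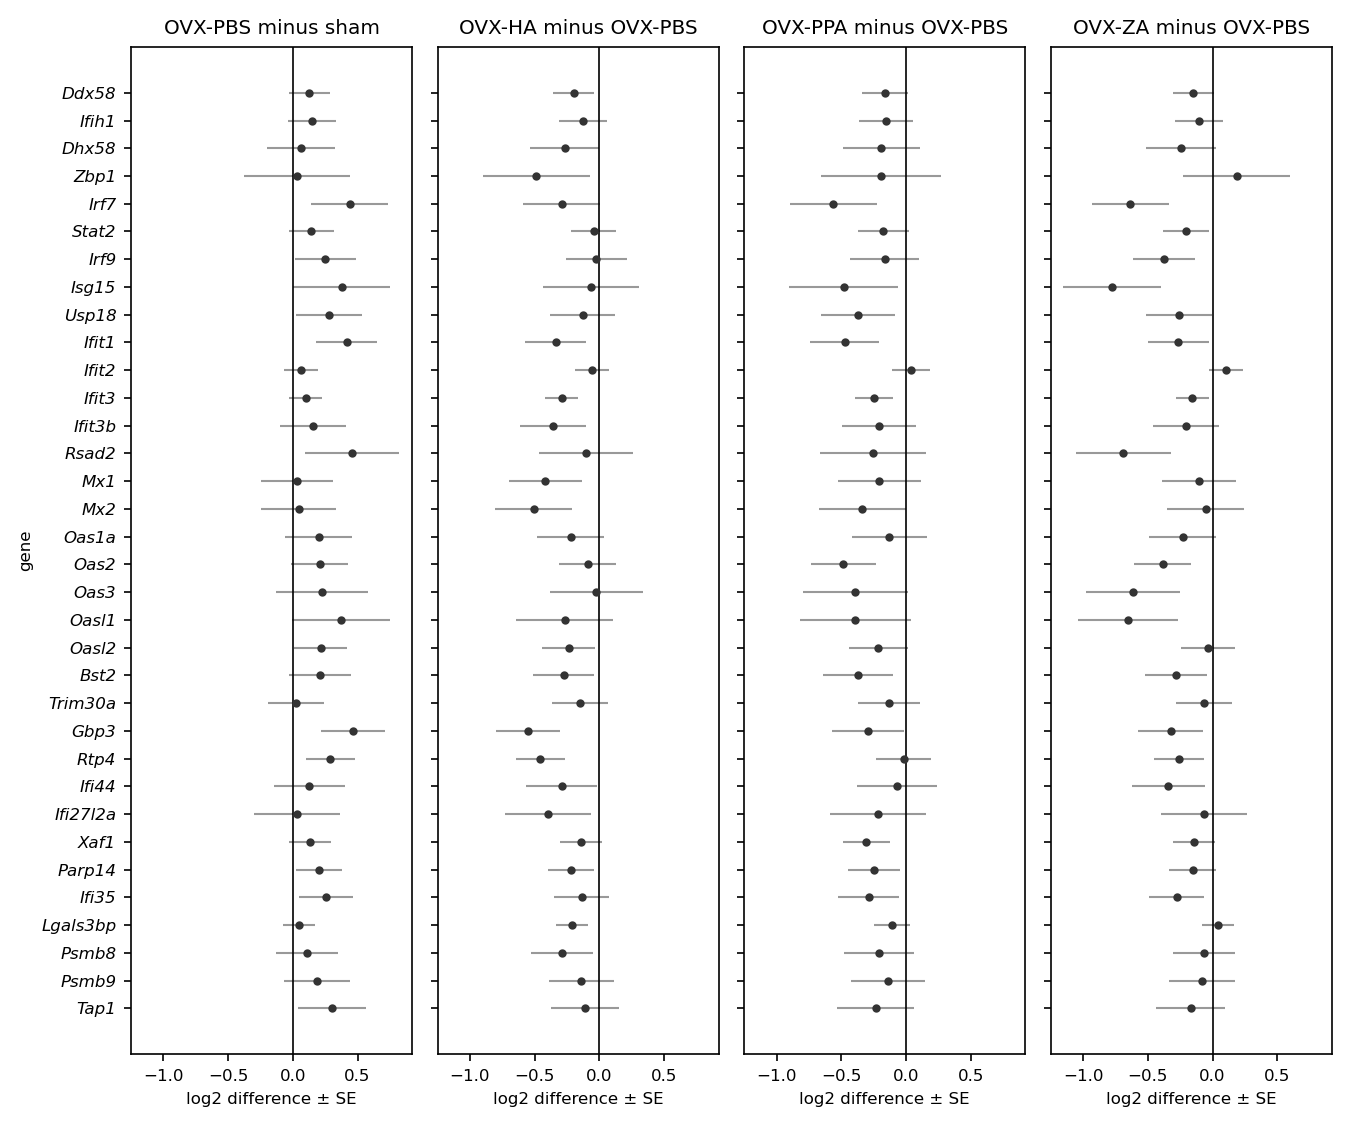
Log2 difference ± SE (edgeR) of each member in 4 comparisons, with the vertical line at 0. All 34 points lie to the right for OVX-PBS minus sham and to the left for OVX-HA minus OVX-PBS, with most bars crossing or nearly reaching 0.

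The 2 phenolic acids, given for the same time at doses not known here, were also compared with each other. The members split nearly evenly, with 16 higher and 18 lower in OVX-HA than in OVX-PPA and a median log2 difference of -0.01. No member was called by edgeR (0% of all genes) or by DESeq2, and 0 were at an unadjusted p under 0.05 (1.19% of all genes). Rtp4 had the smallest p, 6.12 ± 0.688 CPM (SD, n = 3) in OVX-HA against 8.28 ± 1.35 CPM (SD, n = 2) in OVX-PPA, a log2 difference of -0.44 ± 0.21 with a 95% interval of -0.89 to 0.02 (adjusted p of 1, edgeR), and it alone did not overlap (2.94%, against 3.68% of all genes). Oas2 (0.39 ± 0.25, interval -0.15 to 0.93) and Isg15 (0.42 ± 0.42, interval -0.50 to 1.33) followed, each with an adjusted p of 1, and the sign of Isg15 turned without OVX-HA 2, to -0.36. The intervals of Irf7 (-0.45 to 1.00) and Stat2 (-0.29 to 0.56) allow differences in either direction, so the compounds are not shown to act alike.

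Against zoledronic acid, OVX-HA had 14 members higher and 20 lower (median -0.04), and OVX-PPA 12 higher and 22 lower (median -0.06). In both, 0 members were called by edgeR (0.0046% and 0% of all genes) or by DESeq2, and 0 were at an unadjusted p under 0.05 (3.77% and 2.06% of all genes). For OVX-HA the smallest p-values were those of Lgals3bp (-0.25 ± 0.12), Isg15 (0.71 ± 0.38) and Oas3 (0.59 ± 0.36), and without OVX-HA 2 the signs of Isg15 and Oas3 turned, to -0.08 and -0.15. For OVX-PPA they were those of Rtp4 (0.24 ± 0.21), Lgals3bp (-0.15 ± 0.14) and Rsad2 (0.43 ± 0.41), and the adjusted p was 1 for all 6 values. Lgals3bp turned sign in the latter without OVX-PPA 1, to 0.03. Irf9, Isg15, Rsad2 and Oas3 did not overlap and were higher in OVX-PPA than in OVX-ZA (4 of 34 or 11.8%, against 12.7% of all genes), a share close to the background.

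The treated groups were also set against sham. The median log2 difference from sham was -0.02 for OVX-HA, -0.05 for OVX-PPA and -0.03 for OVX-ZA, with 15, 10 and 13 of 34 members higher. With a library left out, these medians ran from -0.27 to 0.07, from -0.27 to 0.14 and from -0.14 to 0.10, so none kept its sign. No member was called by edgeR (0% of all genes in each) or by DESeq2, and 0 were at an unadjusted p under 0.05 (1.74%, 1.82% and 2.79% of all genes). The smallest p-values were those of Mx2, Ifit3 and Mx1 for OVX-HA, of Rtp4, Oas2 and Ifit3 for OVX-PPA, and of Ifit2, Oas3 and Isg15 for OVX-ZA, each with an adjusted p of 1. Libraries did not overlap for Lgals3bp in OVX-HA (2.94%, against 1.93% of all genes) and for Ifit3, Mx2 and Xaf1 in OVX-PPA (8.82%, against 6.55% of all genes), all lower than in sham. These comparisons share the sham libraries with each other and with the comparison of OVX-PBS with sham.

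The rest of the pathway was read from the same fit. Of 21 genes encoding interferons, 0 passed the filter: 13, Ifnb1 among them, were at 0 in every library, where 3 counts would be 0.0799 to 0.247 CPM, and the highest value of any was 0.237 CPM. The receptor genes (6), other signal genes (10), other sensing genes (12) and inhibitors (10) had 0 genes called in the 4 comparisons described first, with medians between -0.14 and 0.08 (log2). Ifngr2, a chain of the interferon gamma receptor, was the receptor gene with the smallest p between OVX-PBS and sham (0.21 ± 0.10). Trex1, a nuclease that removes cytosolic DNA, averaged 7.91 ± 0.259 and 11 ± 1.8 CPM in OVX-PPA and OVX-PBS (-0.47 ± 0.19), and Socs1, an inhibitor of cytokine receptors, 3.18 ± 0.166 and 4.53 ± 0.272 CPM in OVX-ZA and OVX-PBS (-0.51 ± 0.24). Their adjusted p-values were 0.913, 1 and 0.899.

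A list of 45 further interferon-stimulated genes and a list of 15 MHC class I and peptide-loading genes mostly had the sign of the members. In OVX-PBS 38 of 45 and 15 of 15 averaged higher than in sham, with medians of 0.16 in each. In OVX-HA 39 of 45 and 14 of 15 averaged lower than in OVX-PBS, with medians of -0.22 and -0.15, and in OVX-PPA 37 of 45 and 15 of 15, and in OVX-ZA 37 of 45 and 13 of 15, averaged lower as well. None of these genes was called. Parp9, which works on ubiquitin and ADP-ribose signals, had the smallest p between OVX-PBS and sham (0.36 ± 0.15), and Ifi205, a DNA-binding protein gene, between OVX-HA and OVX-PBS (-0.81 ± 0.31). B2m, the light chain of MHC class I, averaged 410 ± 29.8 and 346 ± 25.3 CPM in OVX-PBS and sham (SD, n = 3 each).

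Since single libraries weighed so much, the median of the members was recomputed with each library left out and under other settings. In the 4 comparisons described first it kept its sign in every one of these fits, but its size did not hold. For OVX-PBS minus sham it ran from 0.15 to 0.27 with a library left out, and 30 to 33 of 34 members stayed higher. For OVX-HA minus OVX-PBS it ran from -0.51 to -0.10, for OVX-PPA from -0.46 to -0.04 and for OVX-ZA from -0.30 to -0.09, with as few as 23, 18 and 22 members lower. In 156 fits over the 10 comparisons, 0 had a member past an FDR of 0.05.

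**Figure D5:**
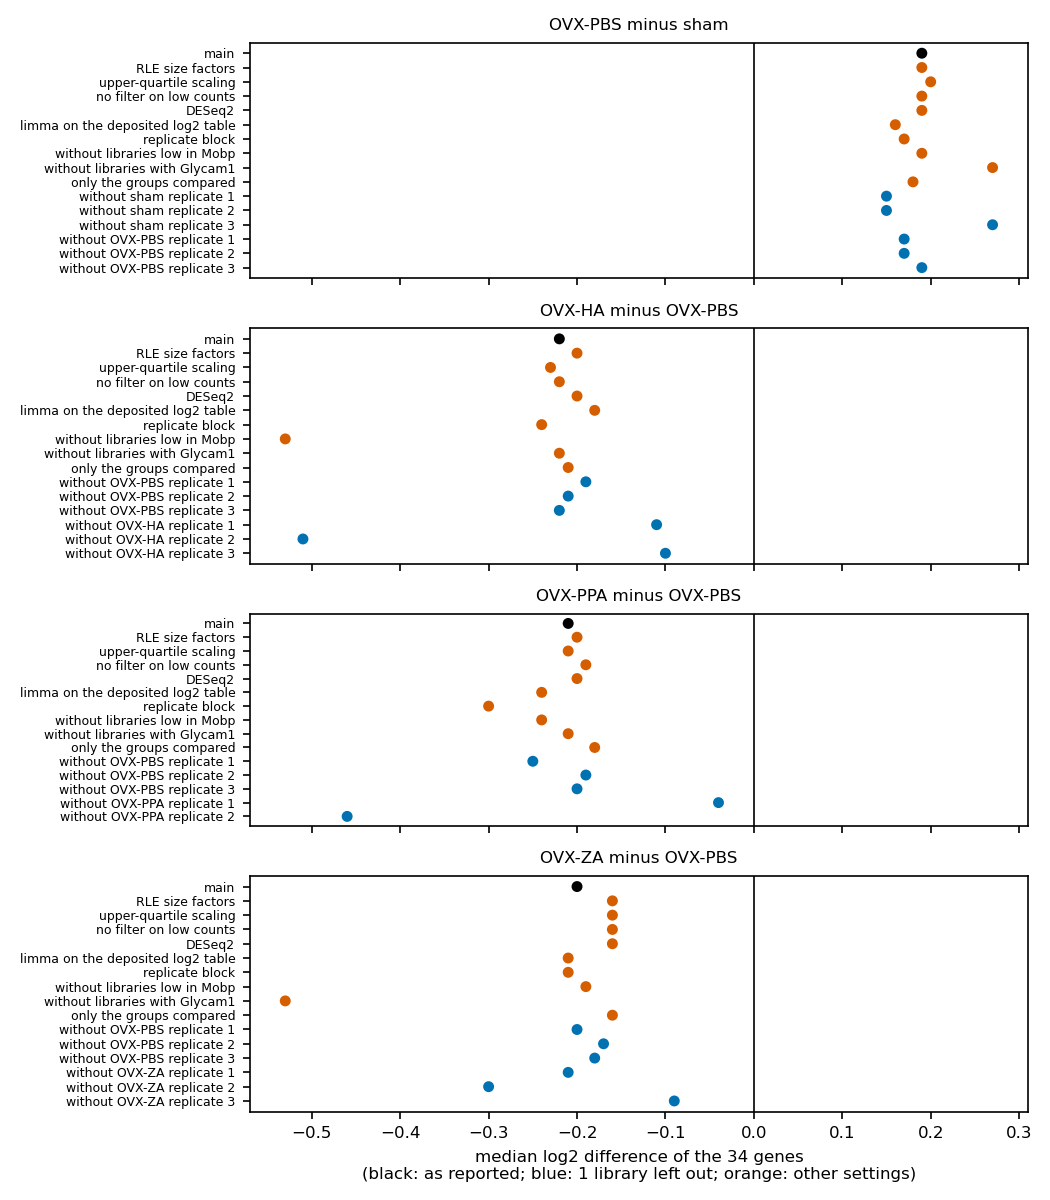
Median log2 difference of the 34 members in 4 comparisons under each setting, with the vertical line at 0. Black is the value as reported, blue leaves out 1 library and orange is another setting; the points without OVX-HA 2 and without the libraries low in Mobp stand at -0.51 and -0.53.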

How the data were processed

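The submitters' processing notes name CASAVA 1.8.1, Partek, Bowtie2 2.2.5, STAR 2.7.8a and the build mm10, with no role for each. Libraries were stranded, made from poly(A) RNA and read once over 75 nt, per the labels' protocols. The authors deposited a table of estimated counts per gene symbol, 20.7% of which lay over 0.01 from a whole number. Their log2 table was also deposited and equals log2 of the count plus 1e-04 minus a constant per library, to within 0.003.

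Counts were rounded, filtered by group (edgeR filterByExpr) and scaled by TMM. One edgeR 4.0.16 quasi-likelihood fit (R 4.3.3, checked on simulated data) of all 14 libraries estimated the 5 group means, with 9 residual degrees of freedom. It gave 10 two-sided comparisons, adjusted by Benjamini-Hochberg over 21761 genes at an FDR of 0.05. Levels are TMM-scaled CPM, and log2 CPM used a prior count of 2. Groups do not overlap when every library of 1 group lies above every library of the other. The median count of a member ran from 58 (Ifi44) to 2483 (Rsad2).

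The members and lists were chosen with earlier results of these data known. Library values were printed for 17 of the members, promoters for 6 of these that hold the core, and each comparison names the 3 members with the smallest unadjusted p. In the pathway lists the genes named had the smallest or next smallest p. Other members were named for their extremes or for groups that did not overlap, after their values were seen. Alternatives were RLE and upper-quartile scaling, no filter, DESeq2 1.42.0, limma 3.58.1 on the log2 table, the compared groups alone, the replicate number as a block, leaving out each library, and leaving out libraries with Mobp under 10 CPM or Glycam1 over 5 CPM.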

Additional observations from a re-analysis of the deposited data

How the results depend on the processing

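No alternative put a member past the FDR. Of the alternative values of the main quantities, 307 kept the count of members called or stayed near the main value, and 14 medians moved further. For medians and library means, near meant within 0.238, the within-group SD of the members' mean log2 CPM, whether or not the sign held. For the share of members with the core, it meant inside the binomial interval. The median log2 difference moved without the libraries low in Mobp to -0.53 for OVX-HA minus OVX-PBS, -0.32 for OVX-HA minus OVX-PPA, -0.30 for OVX-HA minus OVX-ZA and -0.26 for OVX-HA minus sham. Without the libraries with Glycam1, which leaves OVX-ZA 3 as a lone library assumed to vary like the other groups, it moved to -0.53 for OVX-ZA minus OVX-PBS and to 0.26 for both OVX-HA and OVX-PPA minus OVX-ZA. With a library left out it ran from -0.51 (without OVX-HA 2) to -0.10 for OVX-HA minus OVX-PBS, from -0.46 to -0.04 for OVX-PPA minus OVX-PBS, from -0.33 to 0.24 for OVX-HA minus OVX-PPA, from -0.32 to 0.08 for OVX-HA minus OVX-ZA, from -0.34 to 0.16 for OVX-PPA minus OVX-ZA and from -0.27 to 0.07 for OVX-HA minus sham. The cause was not tested.

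Among the 3 members with the smallest p in each comparison, the following turned sign. Without the libraries low in Mobp, Isg15 was at -0.35 for OVX-HA minus OVX-PPA and at -0.07 for OVX-HA minus OVX-ZA, and Oas3 at -0.13 for the latter. Without the libraries with Glycam1, Lgals3bp was at 0.02 for OVX-HA minus OVX-ZA and 0.12 for OVX-PPA minus OVX-ZA, and Ifit2 at -0.05 for OVX-ZA minus sham. With a library left out, Isg15 ran from -0.36 to 0.66 for OVX-HA minus OVX-PPA and from -0.08 to 0.96 for OVX-HA minus OVX-ZA, Oas3 from -0.15 to 0.82 for the latter, and Lgals3bp from -0.41 to 0.03 for OVX-PPA minus OVX-ZA. Of the other members, without the libraries low in Mobp, Dhx58 (-0.02) and Ifi27l2a (-0.03) turned for OVX-PBS minus sham, and against OVX-PBS so did Ifit2 (0.02) for OVX-HA, Rsad2 (0.03) for OVX-PPA, and Ifih1 (0.04), Ifi27l2a (0.04) and Zbp1 (-0.02) for OVX-ZA. The cause was not tested.

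Counts of all genes called, 0 except 1 for OVX-HA minus OVX-ZA, were higher elsewhere. DESeq2 called 1 (OVX-PBS minus sham), 32 (OVX-ZA minus OVX-PBS), 29 (OVX-HA minus OVX-ZA), 14 (OVX-PPA minus OVX-ZA) and 15 (OVX-ZA minus sham). With no filter there were 3 for OVX-ZA minus OVX-PBS, 8 for OVX-HA minus OVX-ZA and 2 for OVX-ZA minus sham. Limma called 1 or 2 in 5 comparisons. Without the libraries low in Mobp the calls were 6 for OVX-ZA minus OVX-PBS, 4 for OVX-HA minus OVX-ZA, and 2 each for OVX-PPA minus OVX-ZA and OVX-ZA minus sham. The compared groups alone gave 1 for OVX-ZA minus OVX-PBS and 0 for OVX-HA minus OVX-ZA. With a library left out the calls ran from 0 to 4 for OVX-HA minus OVX-ZA and from 0 to 1 for OVX-ZA minus OVX-PBS.

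With the replicate number as a block, the median was 0.17 for OVX-PBS minus sham, -0.24 for OVX-HA, -0.30 for OVX-PPA and -0.21 for OVX-ZA minus OVX-PBS, with 0 members called and 0 genes for OVX-HA minus OVX-ZA. Deviations of the 26 pairs of libraries with the same number correlated at -0.554 to 0.425 (median 0.0185). The 52 pairs with other numbers correlated at -0.549 to 0.657 (median 0.0125), and 5 of 14 libraries correlated best with their own number. No pairing by number was seen, but deviations centred within such small groups cannot exclude it. Depth limits low members such as Ifi44, with a lowest count of 26.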
